A study of Homo sapiens with 24 samples.

Results

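BH3-only genes encode small pro-apoptotic members of the BCL2 family. Described here are 6 of them, BBC3 (PUMA), HRK, PMAIP1 (NOXA), BCL2L11 (BIM), BMF and BIK, selected by gene symbol from the count tables of 4 small-cell lung cancer lines. They are 6 of the 16795 genes listed for at least 1 line, and 4 of them (BBC3, PMAIP1, BCL2L11 and BMF) are among the 11408 genes listed for all 4 lines. HRK and BIK are not listed for H82. The group was put together with results of these data in view, and the higher level of BBC3 in treated H209 cells was among them. For that reason the lurbinectedin effect in H209, and every difference that contains it, is given as a description with its standard error (SE) and with no p-value. Which other results were in view is not stated. Tests of the members in the other lines may therefore not be independent of the choice, and their calls stand beside the share of all genes called.

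Total RNA was sequenced from H187 and H209, which the design names as ISL1 high, and from H82 and SHP-77, which it names as ISL1 low. Small-cell lung cancer is a neuroendocrine tumour of the lung, and ISL1 is a transcription factor of neuronal and endocrine cells. Each line received 0.1 nM lurbinectedin or its DMSO vehicle for 24 h, with 3 biological replicates per group, which gives 24 libraries in 8 groups. Lurbinectedin is a DNA-binding alkylating drug that blocks transcription. The groups thus differ by line and by drug, the labels name no engineered allele, and each class of ISL1 level rests on 2 lines.

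Cell survival depends on the balance between BCL2-type survival proteins and the effectors BAX and BAK, which open pores in the outer mitochondrial membrane. BH3-only proteins carry a short BH3 helix that fits into the groove of the survival proteins and displaces the effectors, and some of them also activate the effectors directly. They differ in how they are switched on: PUMA and NOXA mainly by transcription after DNA damage or stress, HRK by JNK signalling in neurons, BIM by FOXO factors and by loss of growth factor signals, BMF by loss of attachment, and BIK in the endoplasmic reticulum.

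The genes lie on 6 chromosomes of hg38. BBC3 is at chromosome 19, 47220822 to 47232766 on the minus strand, HRK at chromosome 12, 116856144 to 116881427 on the minus strand, and PMAIP1 at chromosome 18, 59899960 to 59904306 on the plus strand. BCL2L11 is at chromosome 2, 111120914 to 111168445 on the plus strand, BMF at chromosome 15, 40087891 to 40108884 on the minus strand, and BIK at chromosome 22, 43110748 to 43129712 on the plus strand. The microRNA gene MIR3190 lies inside BBC3 on the opposite strand.

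The sequences just before the start sites of 4 members are shown because these genes moved by very different amounts under the same drug. The first 3 belong to the members with the highest fold changes in H187 and H209, and BCL2L11 is shown as a member with a small change. BMF in H187 (log2 fold change -0.03) and BIK in H209 (0.15) were not called and are not shown. Whether a motif goes with the response was not tested. They come from RefSeq (GRCh38.p14), which matched 5 of the 6 members, and read 5′ to 3′ on the strand of the gene. They cover chr19:47232767-47232917 (minus strand) for BBC3, chr12:116881442-116881691 (minus) for HRK, chr18:59899746-59899959 (plus) for PMAIP1 and chr2:111120664-111120913 (plus) for BCL2L11. Only bases before both the RefSeq start and the start of the gene in the authors' tables are printed. For BBC3 and PMAIP1 the bases next to the RefSeq start lie inside the gene as those tables place it and are left out, so these stretches are 151 and 214 bases long. Capitals mark a match to a motif.
BBC3: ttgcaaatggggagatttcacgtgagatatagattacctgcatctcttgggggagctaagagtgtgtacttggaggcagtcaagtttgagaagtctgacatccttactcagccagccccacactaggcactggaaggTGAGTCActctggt
HRK: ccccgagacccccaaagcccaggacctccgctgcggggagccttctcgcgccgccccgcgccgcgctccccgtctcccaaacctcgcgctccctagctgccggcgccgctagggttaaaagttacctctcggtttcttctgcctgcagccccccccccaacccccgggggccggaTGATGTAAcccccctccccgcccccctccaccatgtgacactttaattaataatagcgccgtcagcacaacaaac
PMAIP1: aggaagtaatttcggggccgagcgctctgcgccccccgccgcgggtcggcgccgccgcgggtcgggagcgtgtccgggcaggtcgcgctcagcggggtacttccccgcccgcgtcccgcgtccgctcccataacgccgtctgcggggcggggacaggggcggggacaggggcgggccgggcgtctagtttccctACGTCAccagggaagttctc
BCL2L11: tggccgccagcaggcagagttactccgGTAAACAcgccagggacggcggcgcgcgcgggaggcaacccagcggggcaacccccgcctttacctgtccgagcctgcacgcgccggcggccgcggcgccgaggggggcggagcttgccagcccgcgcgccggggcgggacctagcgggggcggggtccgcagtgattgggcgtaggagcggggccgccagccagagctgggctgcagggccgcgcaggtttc

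4 short motifs were searched on both strands in the full 250 bases before each RefSeq start, printed or not: TGANTCA (AP-1), TGATGNAA (the core of the C/EBP-ATF response element), TGACGT (the core of the cyclic AMP response element) and GTAAACA (FOXO). The motifs were chosen after the sequences had been seen, and none of the 4 is contained in another. Counted back from the RefSeq start, not from the end of the printed stretch, BBC3 held the AP-1 letters at 113 to 107 bases, HRK the C/EBP-ATF core at 75 to 68, PMAIP1 the cyclic AMP element core on the reverse strand at 56 to 51, and BCL2L11 the FOXO letters at 223 to 217. Among 35116 RefSeq promoter windows, searched over the same 250 bases, 6.57% held TGANTCA, 3.14% TGATGNAA, 7.10% TGACGT and 2.98% GTAAACA. Neither of the 2 start sites of BMF had a match to any of the 4. A match describes letters in a window and is not a measured binding site.

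Library totals ranged from 24226553 to 36415190 counts over the 4 lines. Levels are given in CPM, which are counts scaled to a common library size after TMM normalization. In bulk RNA, more cells that express a gene and more of its RNA per cell cannot be told apart. Of 10 neuroendocrine markers, 8 or 9 are listed for each line, with summed levels from 930 CPM in H82 to 3593 CPM in SHP-77. CHGA is not listed for any line, NEUROD1 is not listed for SHP-77, and GRP is not listed for H82. Markers of fibroblasts, immune cells and endothelium summed to at most 9.28 CPM per list in any library.

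Under DMSO the members had different orders in different lines. Per kilobase of exon, which allows genes to be compared, BMF was highest in H187 at 54.3 ± 1.93 CPM per kb (SD, n = 3), while PMAIP1 was highest in SHP-77 at 84.1 ± 3.07 and in H82 at 9.39 ± 0.735. In H209, BMF (22.9 ± 0.443) and BCL2L11 (22.2 ± 0.584) stood together at the top. HRK had the lowest mean of the listed members in H187 (1.11 ± 0.0534) and H209 (0.957 ± 0.181). BBC3 overlapped with HRK in both lines (1.24 ± 0.163 and 1.19 ± 0.252). BMF was lowest in H82 (1.20 ± 0.0702) and BIK in SHP-77 (0.569 ± 0.169).

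**Figure D1:**
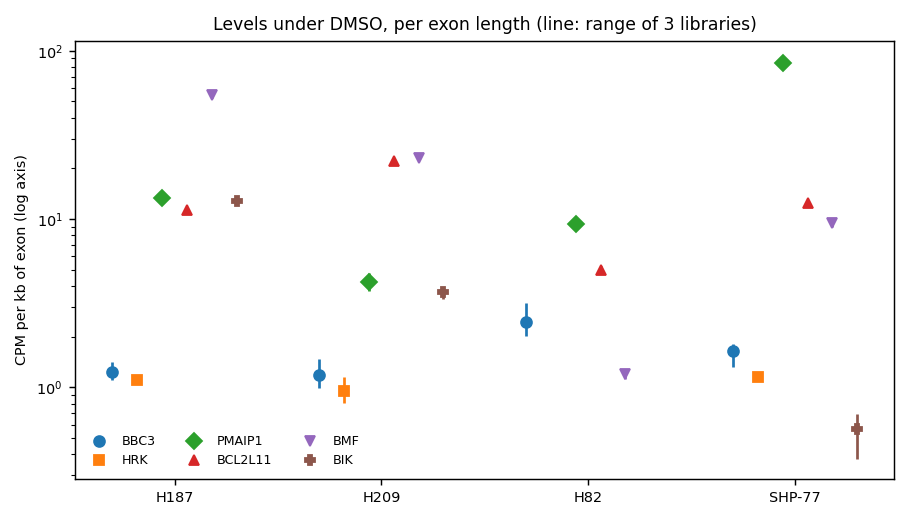
Levels of the BH3-only genes under DMSO in CPM per kilobase of exon (log axis) for each line. Symbols are means of 3 libraries and vertical lines their range. PMAIP1 is the highest member in SHP-77 and BMF the highest in H187.

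Between lines, the DMSO level of a member was compared in 30 tests (6 pairs of lines, members listed for both), and 28 passed an adjusted p of 0.05 with edgeR. That is close to the share of all genes that passed, which was 85.7% for H187 against H209, 88.3% for H187 against H82, 88.0% for H187 against SHP-77, 89.0% for H209 against H82, 87.8% for H209 against SHP-77 and 88.8% for H82 against SHP-77. Differences between lines were thus about as common among the members as among all genes.

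PMAIP1 and BMF spread most widely among the members listed for all 4 lines. The DMSO libraries of PMAIP1, whose product neutralises MCL1, held 162, 157 and 169 CPM in SHP-77, 26.4, 25.4 and 25.5 in H187, 17.9, 16.9 and 19.7 in H82, and 9.30, 8.08 and 7.26 in H209. No library of one line overlapped with those of another. SHP-77 exceeded H187 by 2.67 ± 0.04 on the log2 scale, and H187 exceeded H82 by 0.38 ± 0.07 (edgeR adjusted p = 5.8e-06).

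BMF, a sensor tied to the cytoskeleton, stood at 249, 267 and 262 CPM in the DMSO libraries of H187, at 110, 107 and 111 in H209, at 43.1, 45.4 and 46.5 in SHP-77 and at 5.39, 6.05 and 5.80 in H82. The lines were fully separated in this order. H187 exceeded H82 by 5.38 ± 0.06 on the log2 scale.

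BCL2L11, which binds all survival proteins, was highest in H209 (134, 139 and 141 CPM) and lowest in H82 (30.6, 30.1 and 32.5). SHP-77 (78.9, 75.3 and 77.7 CPM) and H187 (68.8, 70.7 and 71.0) were neighbours between them. H187 minus SHP-77 was -0.15 ± 0.04 on the log2 scale (edgeR adjusted p = 0.0026), but adjusted p was 0.080 with a correction for GC content and 0.062 without replicate 1 of both lines.

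BBC3 varied less between the lines than PMAIP1 or BMF. It stood at 4.41, 4.23 and 6.63 CPM in H82, at 3.81, 3.73 and 2.77 in SHP-77, at 2.51, 2.98 and 2.32 in H187 and at 3.09, 2.31 and 2.08 in H209. The libraries of SHP-77, H187 and H209 overlapped. H187 and H209 did not differ detectably (0.14 ± 0.16 on the log2 scale, 95% interval -0.18 to 0.46, edgeR adjusted p = 0.43), while H187 was below SHP-77 by -0.41 ± 0.15 (adjusted p = 0.014, and 0.16 without replicate 1) and H209 was below it by -0.54 ± 0.16 (0.063 without replicate 2).

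HRK was at 7.00, 6.78 and 7.34 CPM in SHP-77, at 6.42, 7.06 and 6.88 in H187 and at 4.91, 5.57 and 7.07 in H209. All 3 lines overlapped. H187 and SHP-77 did not differ detectably (-0.06 ± 0.10, 95% interval -0.26 to 0.13, edgeR adjusted p = 0.56). H187 was above H209 by 0.29 ± 0.11 (adjusted p = 0.020), a call lost without replicate 1 (0.11) or replicate 2 (0.16), and H209 minus SHP-77 was -0.34 ± 0.11, with adjusted p = 0.084 without replicate 1.

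BIK was at 12.2, 12.9 and 11.8 CPM in H187, at 3.56, 3.19 and 3.78 in H209 and at 0.358, 0.659 and 0.609 in SHP-77. The SHP-77 values rest on 11, 21 and 20 counts. In treated H82 cells, for which the table of the ISL1 classes lists both genes, BIK had 0, 4 and 1 counts and HRK had 6, 11 and 10.

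In H187, lurbinectedin raised BBC3, HRK, PMAIP1 and BCL2L11, lowered BIK and left BMF without a detected change. This was 4 of 6 members higher and 1 lower at an edgeR adjusted p below 0.05, where 12.2% of all 14023 genes were higher and 12.7% were lower. The median log2 fold change of the members was 0.19, against 0.0012 over all genes tested. The same 5 members had groups that did not overlap, against 19.5% of all genes with all treated libraries higher and 19.3% with all lower.

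BBC3, whose product PUMA binds every survival protein, went from 2.51, 2.98 and 2.32 CPM to 4.95, 4.75 and 4.79 CPM in H187. Every treated library was above every DMSO library. The log2 fold change was 0.90 ± 0.14 (edgeR adjusted p = 9.0e-05).

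HRK, a neuronal BH3-only gene, went from 6.42, 7.06 and 6.88 CPM to 11.4, 9.84 and 10.4 CPM in H187. The groups were separate, with a log2 fold change of 0.63 ± 0.10 (edgeR adjusted p = 4.8e-05). PMAIP1 went from 26.4, 25.4 and 25.5 CPM to 29.8, 31.4 and 31.2 CPM, a smaller change of 0.26 ± 0.05 (adjusted p = 0.0013) with separate groups.

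The changes of BCL2L11 and BIK in H187 were small and near the threshold. BCL2L11 went from 68.8, 70.7 and 71.0 CPM to 77.7, 78.4 and 73.5 CPM (0.12 ± 0.04, edgeR adjusted p = 0.040). Its call was lost with DESeq2 (0.063), in the authors' deposited table (FDR 0.053) and without any 1 of DMSO replicates 1, 2 and 3 or lurbinectedin replicates 1 and 2 (0.058 to 0.14). BIK, an endoplasmic reticulum protein, went from 12.2, 12.9 and 11.8 CPM to 10.4, 9.53 and 11.0 CPM (-0.25 ± 0.08, adjusted p = 0.034). Its call was lost with DESeq2 (0.068) and without DMSO replicate 1 or 2 or lurbinectedin replicate 1 or 2 (0.059 to 0.16). BMF stayed between 249 and 267 CPM in all 6 libraries (-0.03 ± 0.04, 95% interval -0.10 to 0.05, adjusted p = 0.65).

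**Figure D2:**
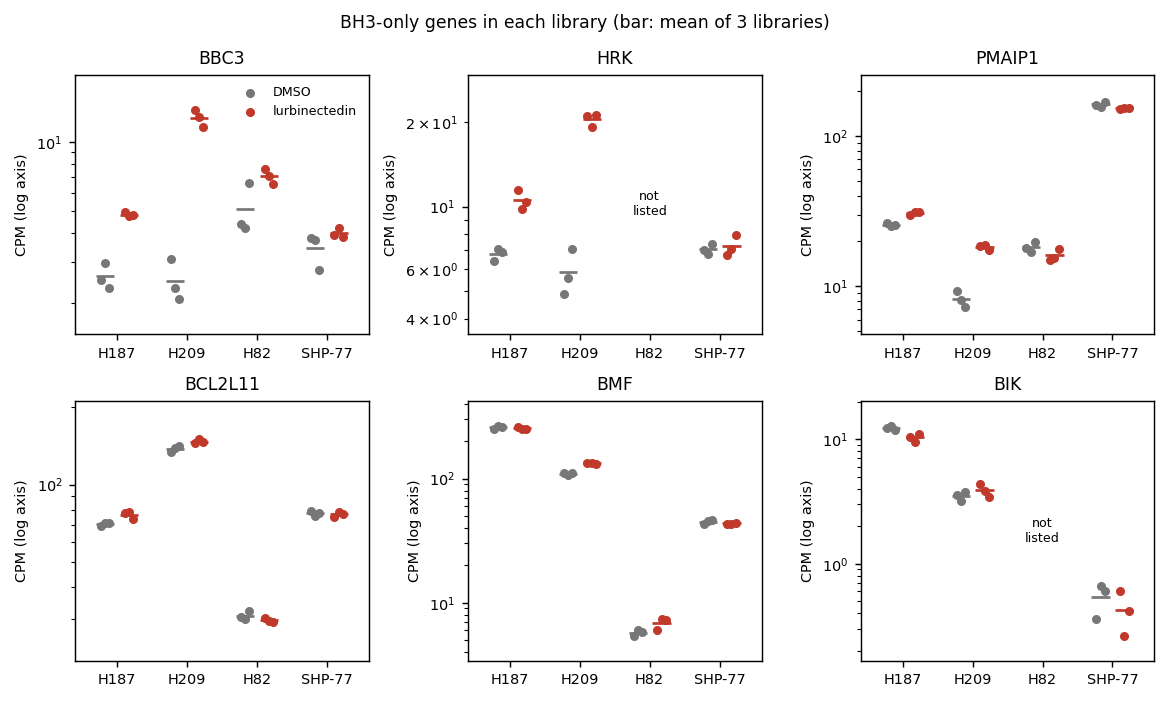
CPM of each BH3-only gene in each library (log axis, a scale of its own per gene), by line, with DMSO in grey and lurbinectedin in red. Short bars are means of 3 libraries. Treated libraries are all above the DMSO libraries for BBC3, HRK, PMAIP1 and BCL2L11 in H187 and H209. They are also above for BMF in H209 and BBC3 in SHP-77, and below for BIK in H187 and PMAIP1 in SHP-77. Of all genes, 19.5% in H187, 26.2% in H209 and 10.4% in SHP-77 were separated upward. Downward it was 19.3% in H187 and 11.6% in SHP-77. PMAIP1 is far higher in SHP-77 than in the other lines.

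In H209 the fold changes were larger, and they are given as a description. BBC3 was at 3.09, 2.31 and 2.08 CPM under DMSO and at 13.7, 12.7 and 11.6 CPM under lurbinectedin, a 5.11-fold difference (log2 2.35 ± 0.12). HRK was at 4.91, 5.57 and 7.07 CPM and then at 21.1, 19.1 and 21.1 CPM, a 3.50-fold difference (log2 1.81 ± 0.09). PMAIP1 was at 9.30, 8.08 and 7.26 CPM and then at 18.6, 18.7 and 17.4 CPM, a 2.22-fold difference (log2 1.15 ± 0.08). For these 3 genes the lowest treated library was well above the highest DMSO library.

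The other members of H209 differed less. BMF was at 110, 107 and 111 CPM under DMSO and at 132, 135 and 132 CPM under lurbinectedin (log2 0.28 ± 0.03), and BCL2L11 was at 134, 139 and 141 CPM and then at 144, 150 and 147 CPM (0.09 ± 0.03). BIK overlapped between the groups (0.15 ± 0.14). In edgeR's fit 5 of 6 members were called higher and 0 lower, where 22.7% of all 14421 genes were higher and 22.5% lower. Since the genes were chosen with this contrast in view, these counts describe the choice and support nothing. The median over the members was 0.71, against 0.0044 over all genes. The BCL2L11 call was lost without DMSO replicate 1 or lurbinectedin replicate 2. The same 5 had groups that did not overlap, against 26.2% of all genes with all treated libraries higher and 25.9% with all lower.

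In H82 no member passed the test: 0 of 4 were called by edgeR and 0 by DESeq2, and 3 (BBC3, BMF and PMAIP1) had an unadjusted p below 0.05. Of all 13516 genes, 1.55% were called higher and 1.38% lower. The median over the members was 0.10, against 0.0044 over all genes, and no member had separate groups, against 11.3% of all genes upward and 10.6% downward. BBC3 was at 4.41, 4.23 and 6.63 CPM under DMSO and at 7.65, 7.08 and 6.54 CPM under lurbinectedin, so that 1 DMSO library overlapped with the treated ones. The log2 fold change was 0.48 ± 0.13 (edgeR adjusted p = 0.054).

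The H82 result for BBC3 depended on that library. Without DMSO replicate 3 the log2 fold change of BBC3 was 0.71 (edgeR adjusted p = 5.0e-04), and over all genes the number called went from 395 to 1397. BBC3 was also called with all 24 libraries in 1 fit (0.47, adjusted p = 0.023) and in the authors' deposited table (0.48, FDR 0.013). Over all alternatives tried, its estimate kept a positive sign.

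PMAIP1 in H82 was at 17.9, 16.9 and 19.7 CPM under DMSO and at 15.1, 15.4 and 17.6 CPM under lurbinectedin (-0.18 ± 0.07, edgeR adjusted p = 0.20). BMF was at 5.39, 6.05 and 5.80 CPM and then at 6.04, 7.41 and 7.21 CPM (0.27 ± 0.11, adjusted p = 0.19). With all 24 libraries in 1 fit BMF was called (0.26, adjusted p = 0.034). BCL2L11 overlapped between the groups (-0.06 ± 0.05, adjusted p = 0.58).

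In SHP-77 edgeR and DESeq2 also called 0 of 6 members, and PMAIP1 alone had an unadjusted p below 0.05. Of all 14190 genes, 1.98% were called higher and 3.21% lower. The median over the members was -0.03, against 7e-04 over all genes. BBC3 was at 3.81, 3.73 and 2.77 CPM under DMSO and at 3.93, 4.24 and 3.86 CPM under lurbinectedin. The treated libraries were all higher, by a small margin, and the log2 fold change was 0.22 ± 0.14 (95% interval -0.05 to 0.49, edgeR adjusted p = 0.43).

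PMAIP1 in SHP-77 was at 162, 157 and 169 CPM under DMSO and at 151, 155 and 153 CPM under lurbinectedin (-0.09 ± 0.03, edgeR adjusted p = 0.10). All treated libraries were lower. Separate groups occurred in 10.4% of all genes upward and in 11.6% downward. HRK (0.04 ± 0.09, 95% interval -0.14 to 0.22), BCL2L11 (-0.01 ± 0.03, -0.08 to 0.06) and BMF (-0.05 ± 0.05, -0.15 to 0.05) overlapped between the groups. BIK at 7 to 21 counts per library had an interval from -1.04 to 0.38, so its direction was not detectable at this depth.

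**Figure D3:**
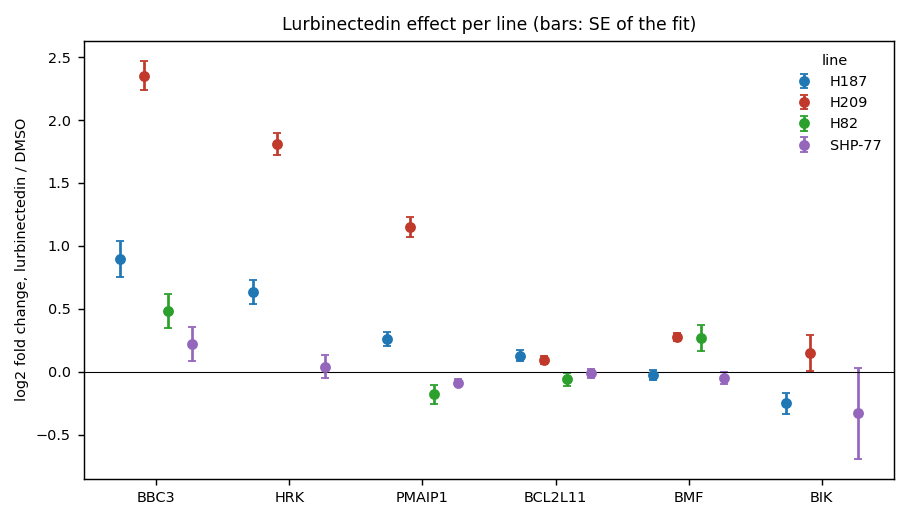
Log2 fold change of each BH3-only gene under lurbinectedin against DMSO in each line, with the SE of the edgeR fit. BBC3, HRK and PMAIP1 are highest in H209, followed by H187. HRK and BIK have no H82 value.

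The difference between 2 lines in their response was then tested directly. Between H187 and SHP-77, 3 of 6 members differed with the higher response in H187, where 10.7% of all genes differed in either direction and 5.32% in this one. BBC3 differed by 0.68 ± 0.20 on the log2 scale (edgeR adjusted p = 0.029), HRK by 0.59 ± 0.14 (0.0047) and PMAIP1 by 0.35 ± 0.06 (3.8e-04). The BBC3 difference missed the threshold without replicate 1 (0.26), 2 (0.10) or 3 (0.063) of both lines, and the HRK difference missed it without replicate 1 (0.12).

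Between H187 and H82, 2 of 4 members differed, where 10.2% of all genes did. PMAIP1 had the higher response in H187 by 0.44 ± 0.09 (edgeR adjusted p = 0.0023), and BMF had the lower one by -0.29 ± 0.09 (0.044), a call lost without replicate 2 (0.25) or 3 (0.19). BBC3 (0.42 ± 0.21, 95% interval 0.0024 to 0.83) had an edgeR adjusted p of 0.23. BCL2L11 was at 0.19 ± 0.06 (adjusted p = 0.062, and 0.047 with the GC correction).

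Between the ISL1-low lines, H82 and SHP-77, edgeR and DESeq2 called 0 of 4 members, and BMF alone had an unadjusted p below 0.05. The share of all genes called was 0.205%. The difference was 0.26 ± 0.21 for BBC3 (95% interval -0.14 to 0.67), -0.09 ± 0.08 for PMAIP1 and 0.32 ± 0.10 for BMF (edgeR adjusted p = 0.23).

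Differences that include H209 are described without a test, for every member listed for both lines. H209 exceeded H187 in response by 1.46 ± 0.20 for BBC3, 1.18 ± 0.14 for HRK, 0.90 ± 0.10 for PMAIP1 and 0.31 ± 0.05 for BMF. H187 minus H209 was -0.41 ± 0.16 for BIK and 0.03 ± 0.05 for BCL2L11. In that comparison 10.4% of all genes were called. H209 minus SHP-77 was 2.14 ± 0.19 for BBC3, 1.77 ± 0.14 for HRK, 1.25 ± 0.08 for PMAIP1 and 0.33 ± 0.05 for BMF. It was 0.49 ± 0.37 for BIK and 0.11 ± 0.05 for BCL2L11, with 28.4% of all genes called. H209 minus H82 was 1.88 ± 0.20 for BBC3, 1.34 ± 0.12 for PMAIP1, 0.16 ± 0.06 for BCL2L11 and 0.02 ± 0.09 for BMF. Here 26.9% of all genes were called. The BCL2L11 value against H82 did not keep its call with RLE scaling, with DESeq2 or without any 1 of the 3 replicate numbers. The 3 comparisons share the H209 libraries.

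As a mean over the lines of each class, the response of the ISL1-high lines minus that of the ISL1-low lines was 1.27 ± 0.15 for BBC3, 0.84 ± 0.06 for PMAIP1, 0.15 ± 0.04 for BCL2L11 and 0.02 ± 0.05 for BMF. The first 3 were called, where 31.4% of the 11408 shared genes were called in either direction and 15.9% upward. These calls contain the H209 effect and support nothing, and that of BCL2L11 was lost without replicate 1. Each class value averages 2 lines, and for BBC3 the ISL1-high lines themselves stood apart, at 0.90 in H187 and 2.35 in H209.

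The levels of BBC3 changed order between the classes. Under DMSO its mean was lower in the ISL1-high lines (-0.81 ± 0.13 on the log2 scale), and under lurbinectedin it was higher (0.44 ± 0.07). The second value rests on H209, which stood at 12.9, 12.0 and 10.9 CPM in that fit, while H187 (4.93, 4.74 and 4.81) remained below H82 (8.45, 7.88 and 7.25). In the authors' deposited table the treated class difference of BBC3 was 0.50 with an FDR of 0.37.

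PMAIP1 was lower in the ISL1-high lines in both states (-2.0 ± 0.05 under DMSO and -1.18 ± 0.04 under lurbinectedin), while BCL2L11 (0.91 ± 0.03 and 1.03 ± 0.03) and BMF (3.30 ± 0.04 and 3.29 ± 0.03) were higher in both. For PMAIP1 SHP-77 stood apart: H187 was above H82 under DMSO, and mean treated levels were 153 CPM in SHP-77, 30.8 in H187, 17.8 in H82 and 17.2 in H209. The authors' deposited table gives -1.83 for treated PMAIP1 (FDR 0.013). For BCL2L11, H187 was below SHP-77 under DMSO. Of all genes, 89.1% were called in the DMSO comparison and 88.9% in the treated one. HRK and BIK were also in the treated comparison. Their H82 libraries held 0 to 11 counts, and those of SHP-77 held 18, 7 and 14 counts of BIK. Their calls as higher in the ISL1-high lines, which include treated H209, therefore support nothing, and no fold is given.

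Other genes of the same pathway were followed through lists that were chosen with earlier results of these data known. Among 4 other BH3-only genes (BAD, BID, BNIP3 and BNIP3L), edgeR called 0 in H187, 3 higher in H209, 0 in H82 and 1 higher in SHP-77, where 22.7% of all genes were higher in H209 and 1.98% in SHP-77. In H187 and H82, 0 of the 4 had an unadjusted p below 0.05, and DESeq2 called 0. BAD was at 0.15 in H209 and 0.21 in SHP-77, and leaving out single libraries reduced the H209 count to as few as 1 and the SHP-77 count to 0.

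The survival genes, which the BH3-only proteins oppose, moved little. BCL2, the founding survival gene, fell in H187 (from 164 ± 9.89 to 140 ± 7.87 CPM, log2 -0.22), was lower in H209 (from 162 ± 5.03 to 139 ± 5.39 CPM, -0.23) and fell in SHP-77 (from 145 ± 1.16 to 133 ± 5.01 CPM, -0.13). The SHP-77 call was lost without lurbinectedin replicate 1 or 3. In H82, BCL2 was at 0.742 ± 0.220 CPM under DMSO and was not called. There edgeR and DESeq2 called 0 of the 4 listed survival genes, and 1 had an unadjusted p below 0.05.

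MCL1, the partner of NOXA, was not called in any line and stood between 252 and 435 CPM in group means. BCL2L1 (BCL-XL) was lower in H209 (-0.13) and BCL2L2 rose in H187 (0.21, lost without DMSO replicate 1 or lurbinectedin replicate 1). BCL2A1 and BCL2L10 are not listed for any line.

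Among the effectors, BAX rose in H187 (0.14) and was lower in H209 (-0.11), and each call was lost without some single libraries (4 of 6 in H187 and 3 of 6 in H209). BAK1 (0.16, call lost without DMSO replicate 2) and BOK (0.23) had higher levels in treated H209 cells. DESeq2 called 2 of the 3 effectors in H209. Of all genes, 22.7% were higher and 22.5% lower in H209, and 12.2% were higher in H187. No listed effector of H82 or SHP-77 was called by edgeR or DESeq2, and 1 of 3 in H82 and 0 of 2 in SHP-77 had an unadjusted p below 0.05.

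Transcription factors known to act on BH3-only genes were called mostly in H187 and H209. This list too was chosen with earlier results of these data known, so its counts are a description. Of 16, 12 rose and 1 fell in H187, with a median log2 fold change of 0.26, against 12.2% and 12.7% of all genes. ATF3 rose by 1.42, DDIT3 (CHOP) by 0.78, EGR1 by 0.69, CEBPB by 0.53, JUN by 0.49 and CEBPG by 0.43, while FOXO1 fell by 0.23.

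In H209, 14 of the 16 were called higher and 0 lower, where 22.7% of all genes were higher and 22.5% lower. The median was 0.57, against 0.0044 over all genes. As for the members in H209, these counts support nothing. ATF3 was at 2.53, CEBPB at 1.96, DDIT3 at 1.61, EGR1 at 1.02, CEBPG at 1.01 and FOS at 0.90. In H82, edgeR and DESeq2 called 0 of 16 and 2 had an unadjusted p below 0.05. There edgeR called 1.55% of all genes higher and 1.38% lower. In SHP-77, 2 rose, JUN by 0.17 and E2F1 by 0.13, where 1.98% of all genes were higher and 3.21% lower. The E2F1 call was lost without 4 of the 6 libraries.

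**Figure D4:**
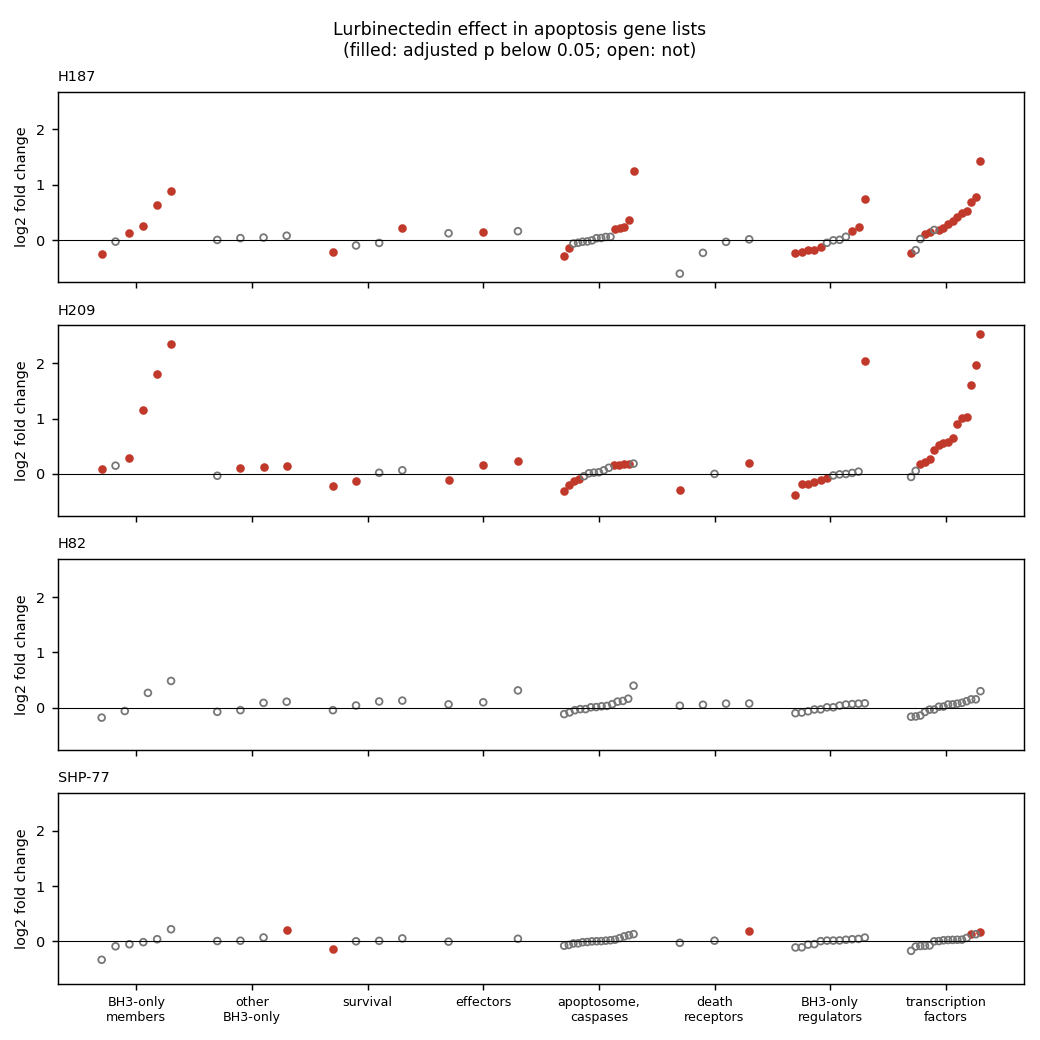
Log2 fold change of the BH3-only genes and of 7 other apoptosis lists in each line, one point per listed gene, ordered within each list. Filled points passed an edgeR adjusted p of 0.05 and open points did not. Filled points are frequent in H187 and H209, and in H82 all points are open.

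Proteins that control BH3-only proteins after translation were also listed. TRIB3, a pseudokinase induced by stress, rose by 0.73 in H187 and was at 2.04 in H209. DYNLL1, a dynein light chain that holds BIM, fell from 279 ± 18.0 to 238 ± 7.07 CPM in H187 (-0.23). In H209 it was at 208 ± 8.84 and then 160 ± 1.5 CPM (-0.37). DYNLL2 was at 0.06 in H187, where it was not called, and at -0.10 in H209. Of the 12 genes of this list, 3 rose and 5 fell in H187, where 12.2% and 12.7% of all genes did. Leaving out 1 library gave 2 to 4 lower genes in H187, and DESeq2 called 5 genes in all instead of 8. In H209, 1 was higher and 6 were lower, where 22.7% and 22.5% of all genes were.

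Downstream, a list of 16 apoptosome and caspase genes also held the apoptosis inhibitor genes XIAP, BIRC2, BIRC3 and BIRC5. Of these 16 genes, 5 rose in H187 and 2 fell, where 12.2% and 12.7% of all genes did. Those that rose included BIRC3, with means of 0.48 CPM under DMSO and 1.13 under lurbinectedin, and those that fell included BIRC5. In H209, 4 of 15 were higher and 4 lower, where 22.7% and 22.5% of all genes were. BIRC2 was among the higher genes of H209, and BIRC5 and XIAP were among the lower. Leaving out 1 library gave 1 to 3 lower genes there, and DESeq2 called 5 genes instead of 8. Of 8 death receptor genes and ligands, 3 or 4 are listed per line. In H187 edgeR and DESeq2 called 0 of 4, and 1 had an unadjusted p below 0.05. In H209 TNFRSF1A was lower (-0.29) and FADD higher (0.19, lost without lurbinectedin replicate 1), where 22.5% of all genes were lower and 22.7% higher. In H82 edgeR and DESeq2 called 0 genes of these 3 lists, while 2 of 12 regulators, 2 of 14 apoptosome and caspase genes and 0 of 4 receptors had an unadjusted p below 0.05. In SHP-77 edgeR called 1 of them, the death receptor TNFRSF1A (0.19, lost without any 1 of the 6 libraries), and DESeq2 called 1 apoptosome or caspase gene.

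Genes with the most similar pattern were sought for the 4 members listed for all lines, by Pearson's r of log2 CPM less the mean of the DMSO libraries of the same line, over 24 libraries and 10284 protein-coding genes. These values are descriptive, since the 24 points share lines, treatments and scaling. Genes much like BBC3 were CEBPB (0.963) and E2F2 (0.963). PMAIP1 was most like MTHFD1L (0.973), GARS (0.973) and GPT2 (0.967).

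BCL2L11 was most like C19orf47 (0.894), JPH1 (0.875) and ACACB (0.858), and BMF was most like PNRC1 (0.850), ZNF703 (0.828) and TES (0.827). Between the members themselves, BBC3 and PMAIP1 had r = 0.907, BBC3 and BMF 0.620, and BCL2L11 and BMF -0.06. The first pair shares the large difference in H209.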

How the data were processed

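Reads were aligned and counted by the authors on hg38 with a set of tools that the submitters' processing notes name as STAR 2.7.10a, Subread 2.0.3 (with featureCounts) and edgeR 4.2.0. Which annotation and which low-count filter they applied is not given in the sources used here. The authors deposited raw counts per gene and library, per the file headers, in 1 table per line and 1 table of the ISL1 classes under lurbinectedin. Their log2 fold changes and the p-values (with FDR) in the deposited tables were used only where named.

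The counts were refitted with edgeR 4.0.16 in R 4.3.3 (filterByExpr with a minimum count of 10, TMM, glmQLFit and glmQLFTest, Benjamini-Hochberg over all genes tested, threshold 0.05): each line on 6 libraries, pairs of lines on 12, the class response on 24, and each class level on 12. Lines are fixed terms, so class results speak of these 4 lines alone. Log2 fold changes carry the SE and levels the SD. The lowest row maximum was 15 counts. The fits were tested on simulated data.

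The members, lists and tests were chosen with earlier results of these data known. Named genes are the 6 members, survival and effector genes, up to 8 further list genes per line by size of change, and the 3 most similar genes per member; some genes that meet this rule are not reported here. Alternatives were RLE, filters, DESeq2 1.42.0, a replicate block, 1 fit of all libraries, the authors' table, leaving out libraries and, added after the data were seen, a GC correction (lowess, span 0.3).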

Additional observations from a re-analysis of the deposited data

Results flagged for a closer look

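In edgeR's test of the difference itself, the lurbinectedin effect on BBC3 and HRK differed between H187 and SHP-77. PMAIP1 differed between H187 and both ISL1-low lines, and BMF between H187 and H82, with the lower response in H187. BBC3 was not called for H187 minus H82 (0.42, edgeR adjusted p = 0.23). The BBC3 call was lost without any 1 of the 3 replicate numbers. The HRK call was lost without replicate 1 and the BMF call without replicate 2 or 3. Values are differences of log2 fold changes. Those with H209 and those between the ISL1 classes contain the effect known when the genes were chosen and are descriptions. BBC3 stood at -1.46 for H187 minus H209, 0.68 for H187 minus SHP-77, 1.88 for H209 minus H82, 2.14 for H209 minus SHP-77 and 1.27 between the classes. PMAIP1 stood at -0.90 for H187 minus H209, 0.44 for H187 minus H82, 0.35 for H187 minus SHP-77, 1.34 for H209 minus H82, 1.25 for H209 minus SHP-77 and 0.84 between the classes. HRK, not listed for H82, stood at -1.18 for H187 minus H209, 0.59 for H187 minus SHP-77 and 1.77 for H209 minus SHP-77.

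BMF stood at -0.31 for H187 minus H209, -0.29 for H187 minus H82 and 0.33 for H209 minus SHP-77. BCL2L11 stood at 0.16 for H209 minus H82 and 0.15 between the classes. The first lost its call with RLE scaling, with DESeq2 and without each of the 3 replicate numbers in turn, and the second without replicate 1. BIK had no difference in response past the threshold.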

How the results depend on the processing

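Of 899 member values under alternatives, 844 kept their direction and side of the threshold, 36 lost a call, 7 gained one and 12 changed sign. None of the 12 was past the threshold on either side. They were BCL2L11 in SHP-77 (from -0.031 to 0.0026 with 1 library left out; positive without DMSO replicate 1 or lurbinectedin replicate 1), HRK in SHP-77 (-0.034 to 0.091; negative without lurbinectedin replicate 3) and the DMSO levels of BBC3 for H187 minus H209 (-0.020 to 0.33; negative without replicate 2) and HRK for H187 minus SHP-77 (0.021 with the GC correction). The others were response differences: BIK for H187 minus SHP-77 (-0.22 to 0.59; negative without replicate 2 or 3) and BMF. Without replicate 1 BMF was negative for H187 minus SHP-77 (range -0.0063 to 0.044), H209 minus H82 (-0.014 to 0.060) and between the classes (-0.013 to 0.039), and the GC correction gave -0.015 for H187 minus SHP-77 and -0.0019 between the classes.

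Members called in H187 went from 5 to 3 with DESeq2, and 3 of 4 were called with all 24 libraries in 1 fit. In H82 they went from 0 to 2 with all libraries in 1 fit and to 1 in the authors' deposited table. Genes called in H82 went from 395 to 191 with the GC correction, 643 with all libraries in 1 fit and 652 in the authors' table, and in SHP-77 from 737 to 451 with all libraries in 1 fit. The causes were not tested, except that a single fit of all libraries tests the shared genes only.

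Same-numbered replicates did not deviate together (r over 0.1 in 1 of 12 pairs, from -0.18 to 0.14). No pairing by number was seen, but groups of 3 libraries cannot exclude it. With replicate number as a block, 3 members were called in H187 and 1 in H82 (BBC3, 0.49, edgeR adjusted p = 0.0039), and 755 genes were called in H82.

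Leaving out 1 library gave 3 to 5 called members and 2402 to 3211 called genes in H187. The ranges were 4 to 5 members and 5733 to 6033 genes for H209, 0 to 1 and 93 to 1397 for H82, and 0 members and 417 to 706 genes for SHP-77. Leaving out 1 replicate number gave 24 to 28 of 30 DMSO level tests. It gave 13 to 14 response differences between 2 lines, where 16 were called with all libraries, and 2 to 3 for the class response. The 16 include 4 of 6 for H187 against H209, 3 of 4 for H209 against H82 and 4 of 6 for H209 against SHP-77. In those pairs 10.4%, 26.9% and 28.4% of all genes were called. These calls and the class response contain the H209 effect, so their counts support nothing. Depth limits BIK in SHP-77, HRK and BIK in H82, and BBC3 at 55 to 421 counts per library.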
